A study of Bos taurus with 6 samples.

Results

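G protein-coupled receptors let endothelial cells sense blood-borne and locally released signals. A ligand on the outside turns on a heterotrimeric G protein inside, which then acts on enzymes such as adenylyl cyclase or phospholipase C. In the vessel wall these receptors read nucleotides shed by platelets and stressed cells, proteases of the clotting cascade, the peptide adrenomedullin and the lipid sphingosine 1-phosphate, and through them they set vascular tone, leukocyte adhesion and the tightness of the barrier. The genes described here are 6 receptors and 1 partner protein. They are P2RY1, a receptor for adenosine diphosphate; F2RL1 and F2R, which encode the protease-activated receptors PAR2 and PAR1; ADGRF5, an adhesion receptor; CALCRL and its partner RAMP2, which together form an adrenomedullin receptor; and S1PR1, the sphingosine 1-phosphate receptor that maintains the endothelial barrier. They were chosen by symbol in the array annotation, with earlier results of the same comparison known, so the differences between groups given for them are a description and were not tested as a separate hypothesis. All 7 genes were on the array, with 12 probe sets between them out of 24016 probe sets and 9155 named genes.

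The treated group was primary bovine aortic endothelial cells given TGF-beta 1, a cytokine of vascular remodelling, at 5 ng/ml for 24 hours, and the basal group was the same kind of cells left without treatment. Each group had 3 arrays, and the labels speak of 3 cultures. They do not tell if the cultures had different animals as source, or if 1 culture gave both a treated and a basal array. The spread between arrays may therefore be technical in part. The cells had been released from aorta with collagenase, carry no genetic change in the labels, and were measured on an Affymetrix bovine expression array as RMA values on the log2 scale. An array value is specific to its probe set, so levels are compared below between arrays and not between genes, and the median of the arrays is named only to mark values that may lie near background. In bulk RNA, fewer cells that express a gene and less RNA per cell cannot be told apart.

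The arrays differed by more than treatment, which touches every value below. Basal 3 correlated at 0.986 and 0.987 across probe sets with TGFB 2 and TGFB 3, but at 0.942 and 0.966 with basal 1 and basal 2. Along the first principal component, with 63.4% of the variance, the arrays split into TGFB 1, basal 1 and basal 2 on one side and TGFB 2, TGFB 3 and basal 3 on the other. These sets are a feature of the data and not of the labels, and TGFB 1 was not firmly in its set. It scored 10.3 on that component, against 67.8 and 38.8 for basal 1 and basal 2. Its correlation was 0.977 and 0.975 with TGFB 2 and TGFB 3, and 0.963 and 0.974 with basal 1 and basal 2. Array medians lay between 5.88 and 5.92 log2, and array number limits the precision. Of 12 endothelial markers 11 were measured, and their mean lay between 9.38 and 9.64 log2 on treated arrays and between 9.24 and 9.86 on basal arrays. None passed the limma threshold, and 5 of the 11 had an unadjusted p under 0.05, 4 lower and 1 higher. The adhesion molecule PECAM1 averaged 11.77 and 12.29 log2 in treated and basal cultures, VE-cadherin (CDH5) 11.53 and 12.10, and the transcription factor ERG 9.58 and 10.17. The co-receptor ENG averaged 10.25 and 9.26, and ROBO4 10.52 and 9.77. The VEGF receptor KDR averaged 4.47 and 5.14, below the median of the arrays, and VWF 6.01 and 6.19, near it. The part of these markers in the results below was not tested. None of the 26 markers of smooth muscle, fibroblasts, pericytes, leukocytes, platelets or lymphatic endothelium that were measured passed the limma threshold, and 0 had an unadjusted p under 0.05. The list means ran from 6.07 to 6.18 log2 on treated arrays and 6.10 to 6.16 on basal arrays for smooth muscle. For leukocytes they ran from 4.95 to 5.09 and 4.87 to 5.08, and for fibroblasts from 6.53 to 6.72 and 6.56 to 7.02. The fibroblast list held unlike levels. In treated and basal cultures COL3A1 averaged 10.65 and 10.78, and FBLN1 8.19 and 9.23. The other fibroblast markers averaged from 3.21 (LUM) to 7.19 (COL1A1) in treated cultures.

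P2RY1 and PAR2 were higher after TGF-beta 1, by 3.48-fold and 4.20-fold, and ADGRF5 was higher by 2.09-fold. RAMP2 was lower by 2.64-fold while its partner CALCRL averaged 10.26 log2 in treated and 10.28 in basal cultures. PAR1 lay higher and S1PR1 lower on average, with arrays of the groups overlapping. Of the 12 probe sets 3 passed the threshold of an adjusted p under 0.05 by limma over all probe sets, all of them upward, 1 each for P2RY1, F2RL1 and ADGRF5. Over the whole array 0.658% of probe sets passed, 0.304% upward. The genes were chosen from this comparison, so nothing is read from that contrast. The treated and basal arrays did not overlap in 5 of the 12 probe sets, 4 upward and 1 downward, where 19.2% of all probe sets showed no overlap, 7.61% upward and 11.6% downward.

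**Figure D1:**
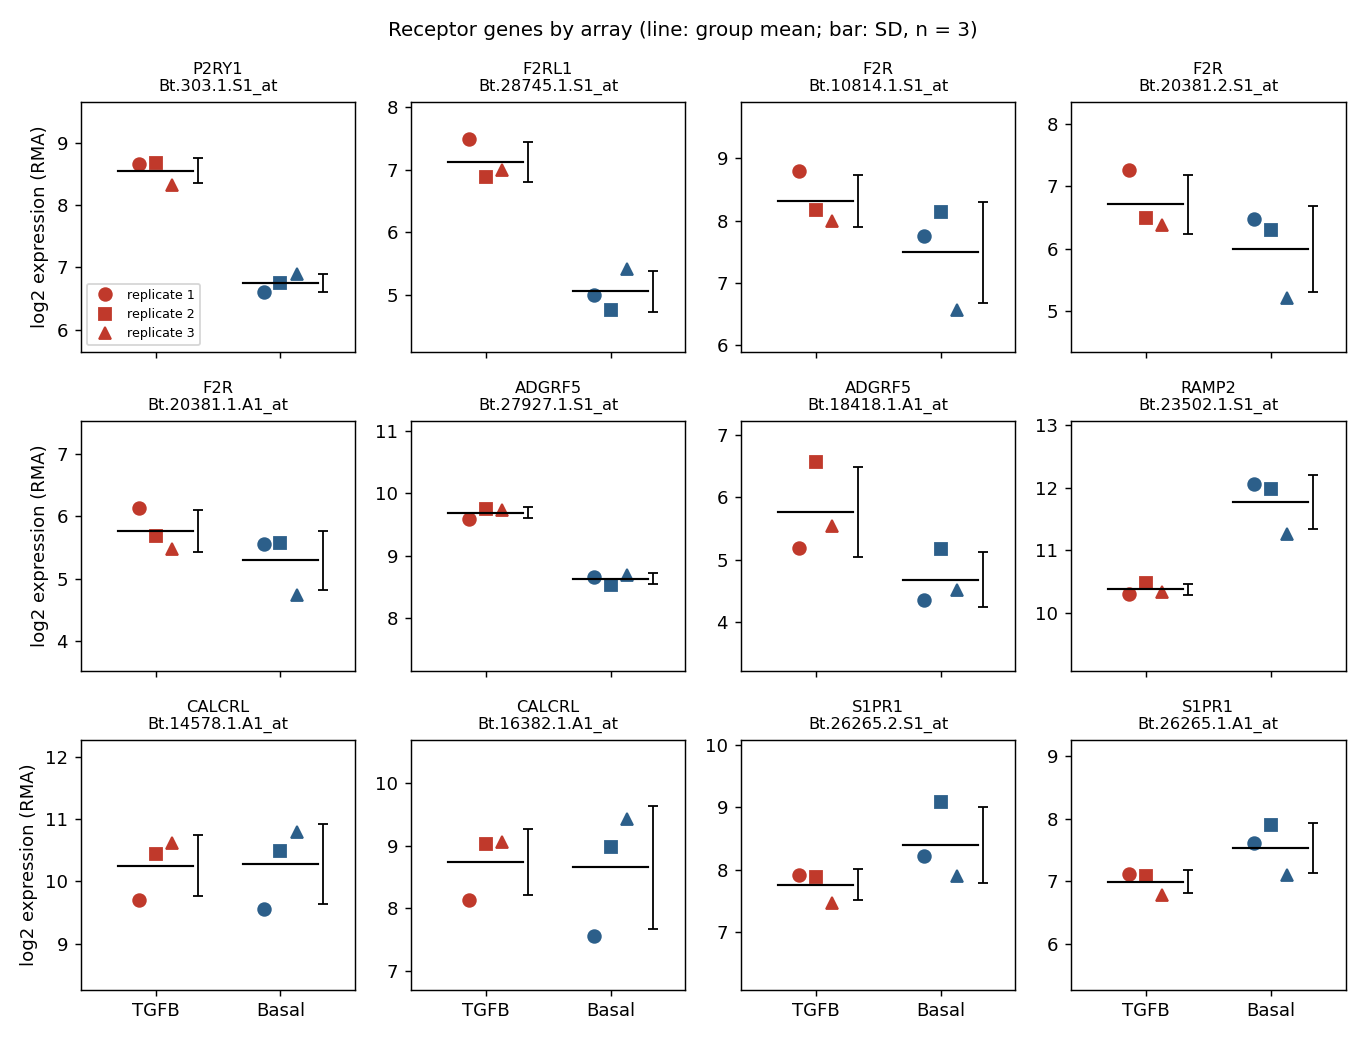
Log2 expression (RMA, y axis, each panel spanning 4 log2 units) of the 12 probe sets on the TGFB arrays (red, left) and the basal arrays (blue, right); symbols mark replicates 1 to 3, lines the group means and bars the SD (n = 3). For P2RY1, F2RL1 and the first ADGRF5 probe set the groups lie far apart, for RAMP2 the treated arrays sit between 10.30 and 10.47 below all basal arrays, and for CALCRL the groups overlap.

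P2RY1 (Entrez gene 281963) encodes P2Y1, which couples to Gq and calcium release when ADP binds. It is best known for platelet shape change, and on endothelium it drives release of vasodilators. Its single probe set had 8.66, 8.67 and 8.32 log2 on the treated arrays 1 to 3, against 6.61, 6.75 and 6.89 on the basal arrays 1 to 3. All treated arrays were above all basal arrays, with a gap of 1.43 between the lowest treated and the highest basal one, while arrays within a group spanned at most 0.35. The means were 8.55 ± 0.20 in treated and 6.75 ± 0.14 in basal cultures (SD, n = 3 each). The difference was 1.80 log2 (SE 0.14, 95% interval 1.46 to 2.13), a 3.48-fold rise (2.76 to 4.38). It was close to this on either side of the array split, at 1.98 for TGFB 1 against basal 1 and 2 and at 1.604 for TGFB 2 and 3 against basal 3. Platelets also carry P2Y1. Of 5 platelet markers 2 were measured, ITGA2B, which averaged 4.81 log2 in treated and 4.77 in basal cultures, and PF4, which averaged 3.53 and 3.49. Their part in the P2RY1 difference was not tested.

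F2RL1 (Entrez gene 526525) encodes PAR2, which trypsin-like proteases and the tissue factor complex with factor VIIa switch on by cutting its outer end. The new end then folds back as a tethered ligand. Its 1 probe set had 7.49, 6.89 and 6.999 log2 on the treated arrays, against 4.99, 4.76 and 5.41 on the basal arrays. Again no array of one group reached into the other, and the gap of 1.48 was more than the span within either group (0.60 treated, 0.65 basal). Means were 7.13 ± 0.32 and 5.05 ± 0.33 in treated and basal cultures, a difference of 2.07 log2 (SE 0.23, 95% interval 1.51 to 2.63) or a 4.20-fold rise (2.85 to 6.20). All basal values lay below the array medians and RMA gives no detection call, so it is not known whether the basal signal exceeded background, and the fold rests on that signal. The difference was 2.61 within the set of TGFB 1 with basal 1 and 2, and 1.53 within the set of TGFB 2 and 3 with basal 3. Basal 3, which stands apart, was the highest basal array for both P2RY1 and F2RL1. Without it the differences were 1.87 and 2.25.

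F2R (Entrez gene 526585) encodes PAR1, the main thrombin receptor of endothelium, which loosens or protects the barrier depending on the protease that cuts it. It had 3 probe sets. The one with the highest mean had 8.79, 8.16 and 7.99 log2 on the treated arrays, against 7.76, 8.13 and 6.57 on the basal arrays. The lowest treated array was below basal 2, so the groups overlapped, and basal 3 lay more than a log2 unit under the other basal arrays. The mean difference was 0.82 (SE 0.44, 95% interval -0.26 to 1.90). The other probe sets gave 0.72 (SE 0.40) and 0.47 (SE 0.28). Across the 6 arrays the 3 probe sets followed each other with Pearson r from 0.962 to 0.990, a description of these arrays. All had their highest value on TGFB 1 and their lowest on basal 3.

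The size of the PAR1 difference depended on the handling of basal 3. With basal 3 left out it was 0.36, 0.32 and 0.20 for the 3 probe sets in the order above. With the array sets entered as a block it was 1.17, 1.05 and 0.70, and all 3 passed by limma, where 5.61% of all probe sets did. The sets were drawn from the values of these same arrays, so these passes are not separate support. With all 6 arrays and no block, none of the 3 passed (limma adjusted p = 0.498, 0.524 and 0.555). Within the sets, the first probe set stood 0.84 higher on TGFB 1 than on basal 1 and 2, and 1.503 higher on TGFB 2 and 3 than on basal 3. The direction was upward in each of these, which all use the same arrays.

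ADGRF5 (Entrez gene 532674), also called GPR116, belongs to the adhesion receptors, which carry a long outer part that cleaves itself. In mice it is best known from lung, where epithelial ADGRF5 restrains surfactant, and it is also made by endothelium. Its brighter probe set had 9.58, 9.75 and 9.74 log2 on the treated arrays, against 8.66, 8.53 and 8.69 on the basal arrays. The values were tight, with SDs of 0.09 in both groups and a gap of 0.89 between them. The difference was 1.06 log2 (SE 0.10, 95% interval 0.83 to 1.30), a 2.09-fold rise (1.77 to 2.46), and it was 0.99 and 1.05 within the array sets. Leaving out basal 3 gave 1.09.

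The dimmer probe set of ADGRF5 had nearly the same mean difference, 1.08 log2, with a far wider error (SE 0.40, 95% interval 0.09 to 2.07). It read 5.18, 6.56 and 5.54 log2 on the treated arrays, against 4.35, 5.18 and 4.52 on the basal arrays. The groups touched, with TGFB 1 only 0.0080 above basal 2, and this probe set did not pass the threshold. The probe sets correlated at 0.751 over the 6 arrays, the lowest value among genes with several.

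**Figure D2:**
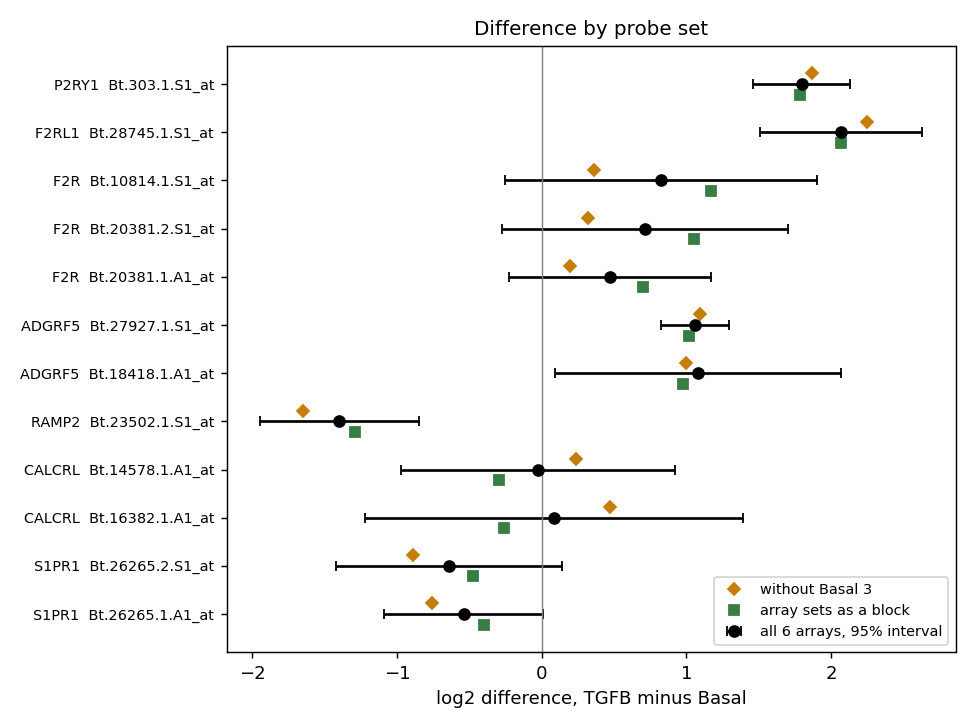
Log2 difference of treated minus basal cultures (x axis) for each probe set (rows); black points and bars are the limma estimate from all 6 arrays with its 95% interval, diamonds the estimate without basal 3 and squares the estimate with the array sets as a block. P2RY1, F2RL1 and ADGRF5 lie right of 0 and RAMP2 left of it in all 3 fits, while the intervals of F2R, CALCRL and S1PR1 include 0.

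RAMP2 (Entrez gene 504230) is not a receptor itself. It is a single-pass membrane protein that carries CALCRL to the cell surface and turns it into a receptor for adrenomedullin, a vasodilator that protects the endothelial barrier. Its probe set had 10.30, 10.47 and 10.34 log2 on the treated arrays, against 12.06, 11.99 and 11.27 on the basal arrays. The treated arrays lay together and below every basal array, and basal 3 was again the basal array nearest to them. Means were 10.37 ± 0.09 and 11.77 ± 0.44 in treated and basal cultures. The difference was -1.40 log2 (SE 0.22, 95% interval -1.95 to -0.85), a level 2.64-fold lower (1.80 to 3.86), which did not pass the limma threshold over all probe sets. Without basal 3 it was -1.65 and with the array split as a block -1.29. RAMP2 passed in both fits, where 8.38% and 5.61% of all probe sets did. Without basal 3, group partly follows the array sets, as the basal arrays left lie in one set. The block was drawn from the values of these same arrays. Neither pass is therefore separate support. RAMP2 passed in no fit that left out any other array. The difference was -1.72 within the set of TGFB 1 with basal 1 and 2, and -0.86 within the other set.

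CALCRL (Entrez gene 527140), the calcitonin receptor-like receptor, needs a RAMP to reach the surface and couples to Gs and cyclic AMP. The brighter of its probe sets had 9.71, 10.44 and 10.62 log2 on the treated arrays, against 9.56, 10.48 and 10.80 on the basal arrays. The groups overlapped fully, and the low values were those of TGFB 1 and basal 1. The difference was -0.03 log2 (95% interval -0.98 to 0.92), an interval wide enough to hold a change of nearly a log2 unit either way. The other probe set gave 0.09 (-1.22 to 1.39) with its low values on the same arrays, 8.13 for TGFB 1 and 7.55 for basal 1. The probe sets correlated at 0.981. The sign turned with the fit, at 0.23 and 0.47 without basal 3 and at -0.29 and -0.26 when the array sets entered as a block.

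S1PR1 (Entrez gene 281135) encodes the Gi-coupled receptor S1P1, which strengthens endothelial junctions. The brighter of its probe sets had 7.92, 7.89 and 7.47 log2 on the treated arrays, against 8.21, 9.07 and 7.90 on the basal arrays. TGFB 1 was just above basal 3, so the groups overlapped. The difference was -0.64 log2 (SE 0.32, 95% interval -1.42 to 0.14). The second probe set gave -0.54 (SE 0.22, -1.09 to 0.01), and the pair correlated at 0.953. Without basal 3 the differences were -0.89 and -0.76, and the second passed by limma, where 8.38% of all probe sets did. In that fit group partly follows the array sets, as for RAMP2. Without basal 2, the highest basal array for both probe sets, the differences were -0.30 and -0.36, and neither passed. When the array sets entered as a block they were -0.48 and -0.40, and neither passed.

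**Figure D3:**
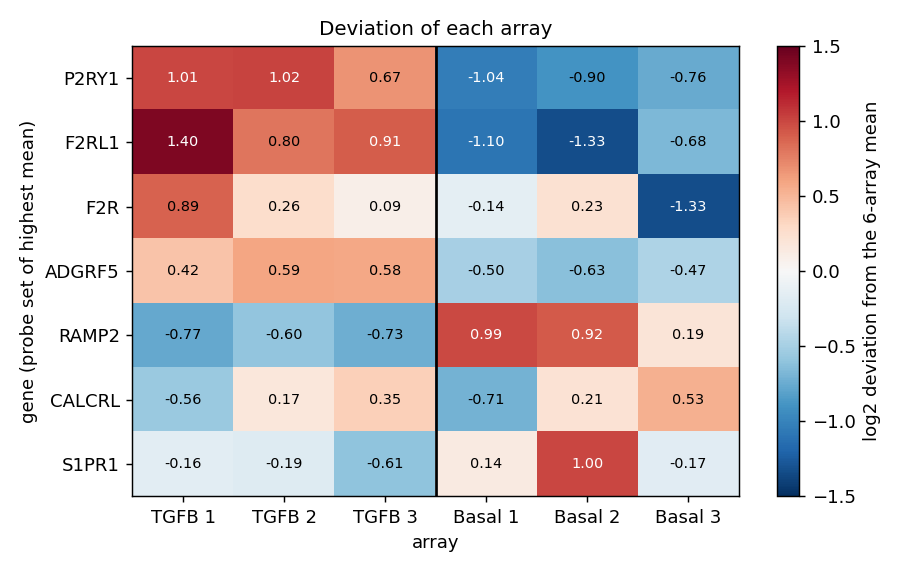
Deviation of each array (columns, treated left of the black line and basal right of it) from the 6-array mean of the probe set of highest mean for each gene (rows), in log2 units (colour and printed values). P2RY1, F2RL1 and ADGRF5 are positive on every treated array and negative on every basal array, RAMP2 is the reverse, F2R is lowest on basal 3 at -1.33, and CALCRL is negative on TGFB 1 and basal 1 alone.

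Calls of single probe sets were fragile. The 3 calls became 5 without basal 3, with RAMP2 and the second S1PR1 probe set added. They became 0 without any one of basal 1, basal 2, TGFB 1, TGFB 2 or TGFB 3. In those fits 4 to 6 of the 12 had an unadjusted p under 0.05 by limma, beside 2123 to 2991 of all 24016. The number of calls over the whole array moved likewise, to 8.38% of probe sets without basal 3. It was between 1 and 12 of 24016 without any one of the other arrays. By limma-trend 2 of the 12 passed, as the brighter ADGRF5 probe set lost its call at an adjusted p of 0.0576. Over these 6 fits the difference of P2RY1 ran from 1.73 to 1.91, that of F2RL1 from 1.89 to 2.25, that of the first ADGRF5 probe set from 1.01 to 1.12 and that of RAMP2 from -1.65 to -1.25.

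The genes whose pattern over the 6 arrays was most like that of P2RY1 were TAGLN (transgelin), a partner of actin in contractile cells, with Pearson r = 0.996, SELE (E-selectin) with 0.995, the phosphatase BPNT2 with 0.994, the pleckstrin PLEK2 with 0.990 and the kit ligand KITLG with 0.990. F2RL1 itself correlated with P2RY1 at 0.974. Those most like F2RL1 were SERTAD4 with r = 0.996, the cell adhesion protein NPTN with 0.995, the chemokine CXCL12 with 0.995, the LIM protein FHL2 with 0.993 and the RNA cleavage factor CSTF2 with 0.992. The correlations are over 6 arrays that share the treatment, and the genes were picked from 9155 as the most alike, so they carry no p-value.

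Among the other 269 genes listed for the receptor families and their signalling machinery, 169 were measured. By limma adjusted over all probe sets, none passed the threshold upward and 2 passed it downward, ENPP2 and ADCY4. That is 1.18%, where 1.02% of all named genes passed, 0.371% upward and 0.644% downward. The median difference was -0.07 log2, against -0.03 over all named genes, and 35 of the 169 (20.7%) had an unadjusted p under 0.05, against 18.4% of all named genes. These shares were near the background of the array.

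**Figure D4:**
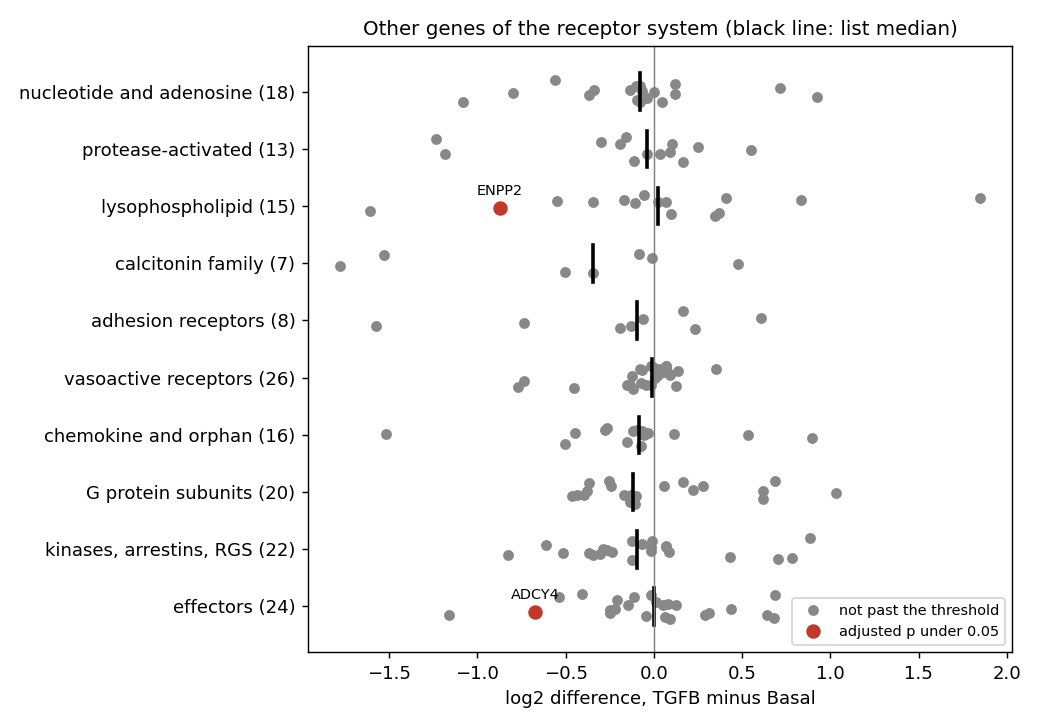
Log2 difference of treated minus basal cultures (x axis) for the 169 measured genes of the receptor system (points), by list (rows, number measured in brackets); black lines mark list medians and red points the genes past the limma threshold. ENPP2 at -0.87 and ADCY4 at -0.67 are the 2 genes past it, and the list medians lie between -0.35 and 0.02.

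Of the relatives of P2RY1, 18 of 29 genes for nucleotide and adenosine receptors and for nucleotide handling were measured, none passed (limma, 3 at an unadjusted p under 0.05) and the median was -0.08. P2RX4, an ATP-gated channel that mediates calcium entry under shear stress, had 6.26, 6.48 and 6.50 log2 on treated arrays, against 7.44, 7.22 and 6.99 on basal arrays, a difference of -0.80 (SE 0.14, limma adjusted p = 0.0841). ADORA2B, a Gs-coupled adenosine receptor, stood at -1.08 (SE 0.25, limma adjusted p = 0.14), with all treated values below the array medians. ADA, which breaks down adenosine, stood at 0.92 (SE 0.23, limma adjusted p = 0.158). In each of these genes the treated and basal arrays did not overlap, as in 19.2% of all probe sets. Here and below, genes named from a list are those of smallest p unless stated otherwise, and that choice favours such separation. P2RY2, the ATP and UTP receptor of endothelium, stood at 0.05 (95% interval -0.28 to 0.37). P2RY2, F2RL2, RAMP1, RAMP3 and S1PR2 are given here as the nearest relatives of the receptors above, chosen after their values were seen.

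Around the protease-activated receptors 13 of 15 genes were measured, none passed (limma, 2 at an unadjusted p under 0.05) and the median was -0.04. PROCR, the endothelial protein C receptor that directs PAR1 towards barrier protection, had 9.01, 8.41 and 8.55 log2 on treated arrays, against 10.11, 9.91 and 9.51 on basal arrays. Its difference was -1.18 (SE 0.22, limma adjusted p = 0.0936), without overlap. Thrombomodulin (THBD), which turns thrombin towards protein C, stood at -1.24 (SE 0.41, limma adjusted p = 0.272), with TGFB 1 at 8.92 far below TGFB 2 and 3. The protease ST14, an activator of PAR2, stood at -0.30 (SE 0.14). F2RL2, which encodes PAR3, stood at 0.10 with a 95% interval of -0.82 to 1.02.

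Around the adrenomedullin receptor 7 of 11 genes were measured, the other RAMPs, the ligand ADM, a scavenger receptor, an accessory protein and enzymes that make or clear such peptides. None passed (limma, 4 at an unadjusted p under 0.05). The difference was negative in 6 of the 7, beside 55.6% of all named genes, with a median of -0.35. ACKR3, a scavenger receptor for CXCL12 and adrenomedullin, had 8.53, 8.49 and 8.97 log2 on treated arrays, against 10.84, 10.81 and 9.68 on basal arrays, a difference of -1.78 (SE 0.35, limma adjusted p = 0.0978). The ligand adrenomedullin (ADM) had 6.50, 7.72 and 8.46 log2 on treated arrays, against 8.98, 9.001 and 9.29 on basal arrays. It stood at -1.53 (SE 0.48, limma adjusted p = 0.244). CRCP, a component of the receptor for calcitonin gene-related peptide, stood at 0.47 (SE 0.13, limma adjusted p = 0.176). The other RAMPs stood at -0.09 for RAMP1 (95% interval -0.44 to 0.27) and -0.35 for RAMP3 (-0.86 to 0.17).

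Of the lysophospholipid genes 15 of 20 were measured, with a median of 0.02. ENPP2, the autotaxin that makes lysophosphatidic acid outside the cell, had 8.77, 8.92 and 8.93 log2 on treated arrays, against 9.81, 9.78 and 9.65 on basal arrays. It was the 1 gene of this list past the threshold and fell by 0.87 log2 with an SE of 0.09 and a limma adjusted p = 0.0376. SPHK1, which makes sphingosine 1-phosphate, stood at 0.83 (SE 0.19, limma adjusted p = 0.131) with no overlap. PLPP1, a phosphatase of such lipids, stood at -0.34 (SE 0.11, limma adjusted p = 0.253). PLPP3 of the same family, added after its value was seen, went the other way at 1.85 (SE 0.63, limma adjusted p = 0.276). Of its 2 other probe sets, 1 had the same sign. The receptor S1PR2 stood at 0.35 (95% interval -0.09 to 0.78).

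Of the other adhesion receptors 8 of 21 were measured and none passed (limma, 2 at an unadjusted p under 0.05). ADGRE5 (CD97) had 5.71, 5.67 and 5.94 log2 on treated arrays, against 7.57, 7.72 and 6.76 on basal arrays, a difference of -1.57 (SE 0.26, limma adjusted p = 0.0758). All treated values lay below or near the array medians. ADGRL2 stood at 0.61 (SE 0.18, limma adjusted p = 0.208) and ADGRG1 at -0.74 (SE 0.33, limma adjusted p = 0.415). Of 40 receptors for vasoactive peptides, amines and prostanoids 26 were measured, none passed (limma, 1 at an unadjusted p under 0.05) and the median was -0.01. The smallest unadjusted p among them was that of the apelin receptor APLNR at 0.35 (SE 0.13), followed by PTGFR at -0.45 (SE 0.19) and AVPR1A at -0.77 (SE 0.46). AVPR1A read 6.91 on basal 3 and lay below the array medians on all other arrays, as PTGFR did on every array. The other probe set of APLNR and both others of PTGFR had the opposite sign. Of 36 chemokine, Frizzled and orphan receptors 16 were measured and none passed (limma, 2 at an unadjusted p under 0.05). FZD4, the Norrin and Wnt receptor of vessels, had 7.18, 7.14 and 7.15 log2 on treated arrays, against 9.13, 8.89 and 8.01 on basal arrays, a difference of -1.52 (SE 0.29, limma adjusted p = 0.0966). GPRC5B stood at -0.44 (SE 0.11) and GPRC5C at -0.15 (SE 0.08).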

How the data were processed

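The deposited values are log2 expression per probe set, made by the authors by RMA in the affy package (submitters' processing notes, no versions). RMA corrects background, sets arrays to a common distribution and summarises probes, so it compresses changes near background. The RNA input was 4 µg, per the labels. Of 24128 probe sets 112 AFFX controls were left out. The array annotation gave 1 symbol for 13292 of the 24016 others, several for 86 and none for 10638. RefSeq (ARS-UCD2.0) matched 13263 by identifier and changed 0 symbols. The number of array columns left unused was 0. No coordinates or sequences are printed, since no genome or sequence table was used here.

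Treated arrays were set against basal arrays by limma 3.58.1 (R 4.3.3), with no term but group, 4 residual and 1.97 prior degrees of freedom, and two-sided p-values adjusted by Benjamini-Hochberg over 24016 probe sets at 0.05. Genes of the lists were each taken by the probe set of highest mean. The genes, lists and the alternative with array sets were chosen with earlier results of these data known. Named were all probe sets of the 7 genes, every list gene past the threshold, the 3 of smallest p in each of 10 lists, and the 5 genes most like P2RY1 and F2RL1. Exceptions are stated. Alternatives were other scalings, variance models, blocks, filters on dim probe sets, other probe sets and leaving out each array. Plots used matplotlib 3.10.9 and Python 3.11.15.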

Additional observations from a re-analysis of the deposited data

How the results depend on the processing

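The 171 differences computed for the 12 receptor probe sets under the alternatives, other probe sets of a gene included, all moved by less than 1 SD between arrays, and no called difference changed sign. Much of this was fixed in advance. Variance models, filters and the replicate block cannot change a difference, and leaving out 1 of 3 arrays cannot shift it by 1 SD. Only the other scalings, the array sets as a block and the other probe sets could have moved it further. Counts of calls did change. Of the 12 receptor probe sets 3 passed, 2 with limma-trend, 7 with the array sets as a block, 0 with the replicate block (limma, 10 at an unadjusted p under 0.05), and 0 to 5 without one array. Over all probe sets 158 passed, 73 higher and 85 lower. That was 100 with a further quantile normalization (57 higher, 43 lower), 87 with limma-trend, 1348 with the array sets as a block, 0 with the replicate block (limma, 4450 at an unadjusted p under 0.05), and 1 to 2012 without one array, the highest without basal 3. Of the other receptor system genes 2 passed. With array medians centred, a further quantile normalization, robust eBayes or a filter at the 25th percentile or the median of mean expression, 1 passed. With limma-trend 0 passed (32 at an unadjusted p under 0.05), with the replicate block 0 (45), 21 when the array sets entered as a block, and without one array 0 to 15. Without basal 3 the basal arrays left fall in one array set and 2 of the 3 treated arrays in the other. The cause of these changes was not tested. The labels do not tell if the replicate numbers pair the arrays. Deviations from the group means correlated at 0.672 and 0.687 for numbers 1 and 3, but at -0.455 for number 2.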

Other observations

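The machinery downstream of the receptors was measured on the same arrays. Of 28 G protein subunit genes 20 were measured and none passed the limma threshold (5 at an unadjusted p under 0.05), with a median difference of -0.12 log2. GNG2, a gamma subunit, stood at 0.62 (SE 0.14), GNA14, an alpha subunit of the Gq class, at -0.40 (SE 0.09) and GNG11 at -0.37 (SE 0.12), each with treated and basal arrays apart. Of 32 receptor kinases, arrestins, RGS proteins and trafficking partners 22 were measured and none passed (limma, 4 at an unadjusted p under 0.05). RGS16, which speeds the shut-off of G proteins, stood at 0.78 (SE 0.14, limma adjusted p = 0.0838), ARRB2 (beta-arrestin), which ends receptor signalling, at -0.83 (SE 0.20) and RGS19 at -0.29 (SE 0.09). Of the 2 other probe sets of RGS16, 1 had the same sign. All treated values of ARRB2 lay below the array medians.

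Of 37 effector genes 24 were measured, none passed the limma threshold upward and 1 passed it downward. ADCY4, an adenylyl cyclase that makes cyclic AMP, had 5.96, 6.10 and 6.11 log2 on treated arrays, against 6.78, 6.65 and 6.76 on basal arrays. It fell by 0.67 log2 (SE 0.09, limma adjusted p = 0.0494), just under the threshold. Under several of the alternatives given above, the number of receptor system genes past the threshold was 1 or 0. Next to ADCY4 by unadjusted p was PRKAR1B, a regulatory subunit of protein kinase A, at -0.41 (SE 0.09). After it came RAPGEF3 (Epac), a cyclic AMP-activated exchange factor that tightens endothelial junctions, at -1.16 (SE 0.26, limma adjusted p = 0.128). RAPGEF3 had 6.59, 6.32 and 6.47 log2 on treated arrays, against 8.02, 7.80 and 7.04 on basal arrays, with no overlap.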
